A study of Mus musculus with 19 samples.

Results

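CD8 tumour-infiltrating lymphocytes from liver metastases of mice lacking Tet2 in T cells (Cd4CreTet2KO, 4 libraries) were compared with the same cells from Tet2fl/fl control mice (3 libraries). These 7 libraries were taken by genotype and cell type from the 19 RNA sequencing libraries of the series, and every gene of the deposited CD8 table was read. All mice carried floxed Tet2. The labels name no Cre for the controls, and the knockout mice carried Cd4-Cre. The series also held CD8 cells of 3 Vav1CreTet2KO mice, in which Cre is active across blood cells, and CD4 cells of all genotypes. Tumours came from Venus-AKTPM/LOH colorectal cancer cells injected into the spleen and were taken on day 30, and the sort used CD45, CD3ε, CD8α and CD4. The ages and sexes of the mice and the time of Cre activity are not in the labels. The title of the series sets these mice in the context of T cell exhaustion, metastasis and clonal hematopoiesis with mutant TET2, so the comparison asks how CD8 cells differ when Tet2 is lost in the T cells themselves.

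TET2 oxidises methylated cytosine in DNA, chiefly at CG dinucleotides, and so takes part in the loss of DNA methylation at promoters and enhancers. CD8 T cells that meet antigen for a long time, as in tumours, enter a state called exhaustion, in which the transcription factor TOX and receptors such as PD-1 (Pdcd1) are high. Cells held in a naive or stem-like memory state express Tcf7 and Klf factors instead, and it is from such cells that exhausted populations are renewed. Cd4-Cre becomes active in thymocytes that carry both CD4 and CD8, so the floxed gene is cut in CD8 as well as CD4 T cells, whereas cells outside the T lineage largely keep it.

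Reads on genes numbered 8189300, 9492953 and 12519013 in Tet2fl/fl replicates 1 to 3. In Cd4CreTet2KO replicates 1 to 4 they numbered 18949526, 20327809, 13272000 and 16037092, so every knockout library was deeper than every control. A value of 0 in a control thus comes from a shallower library. Levels are given as RPKM, the values the authors deposited, which are reads scaled to gene length and library size, so levels of different genes can be set beside each other per unit of length. The sorted identity was checked first. Cd8a, a chain of the CD8 coreceptor, was at 218, 179 and 230 RPKM in Tet2fl/fl replicates 1 to 3 and at 103, 99.9, 119 and 117 RPKM in Cd4CreTet2KO replicates 1 to 4. Cd4 was listed at 0 in the 3 controls and at 7.68, 2.27, 0 and 0.0158 RPKM in the knockout libraries. The summed level of 8 CD8 T cell genes was 1060 to 1425 RPKM in the controls and 715 to 1071 RPKM in the knockouts.

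Markers of other cells divided the knockout libraries. The summed level of 15 macrophage and monocyte genes was 366 and 190 RPKM in Cd4CreTet2KO replicates 1 and 2, against 8.76 and 10.8 RPKM in replicates 3 and 4 and 17.2 to 38.7 RPKM in the controls. Of the 11 such genes tested, 10 were above every control in both replicates 1 and 2 and none in both replicates 3 and 4. Of all 10224 genes tested, 1129 and 930 were. Lyz2, the lysozyme of myeloid cells, was at 172 and 88.2 RPKM in replicates 1 and 2 and at 2.06 and 2.82 RPKM in replicates 3 and 4. Fcgr1 was at 1.74 and 1.22 RPKM in replicates 1 and 2 and listed at 0 in replicates 3 and 4 and in all controls. Some low genes did not mark this division. Ms4a7 was at most 0.130 RPKM in any library. Mrc1 was at 0.936 RPKM in Tet2fl/fl replicate 3 and 0.797 RPKM in Cd4CreTet2KO replicate 2, and Cd163 at 0.350 RPKM in replicate 4 and 0.341 RPKM in replicate 1. Neutrophil genes summed to 101 and 62.0 RPKM in replicates 1 and 2 and to at most 3.94 RPKM in the other 5 libraries, with Ly6g at 0 throughout. MHC class II genes were high in all knockout libraries except replicate 3, with sums of 2901, 1223, 335 and 680 RPKM against 110, 61.3 and 396 RPKM in the controls. Fibroblast genes summed to at most 0.401 RPKM in the compared libraries. In bulk RNA of sorted cells, fewer cells of a type and less RNA per cell cannot be told apart. Some results are therefore also given without replicates 1 and 2, and the others rest on all 4 knockout libraries.

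**Figure D1:**
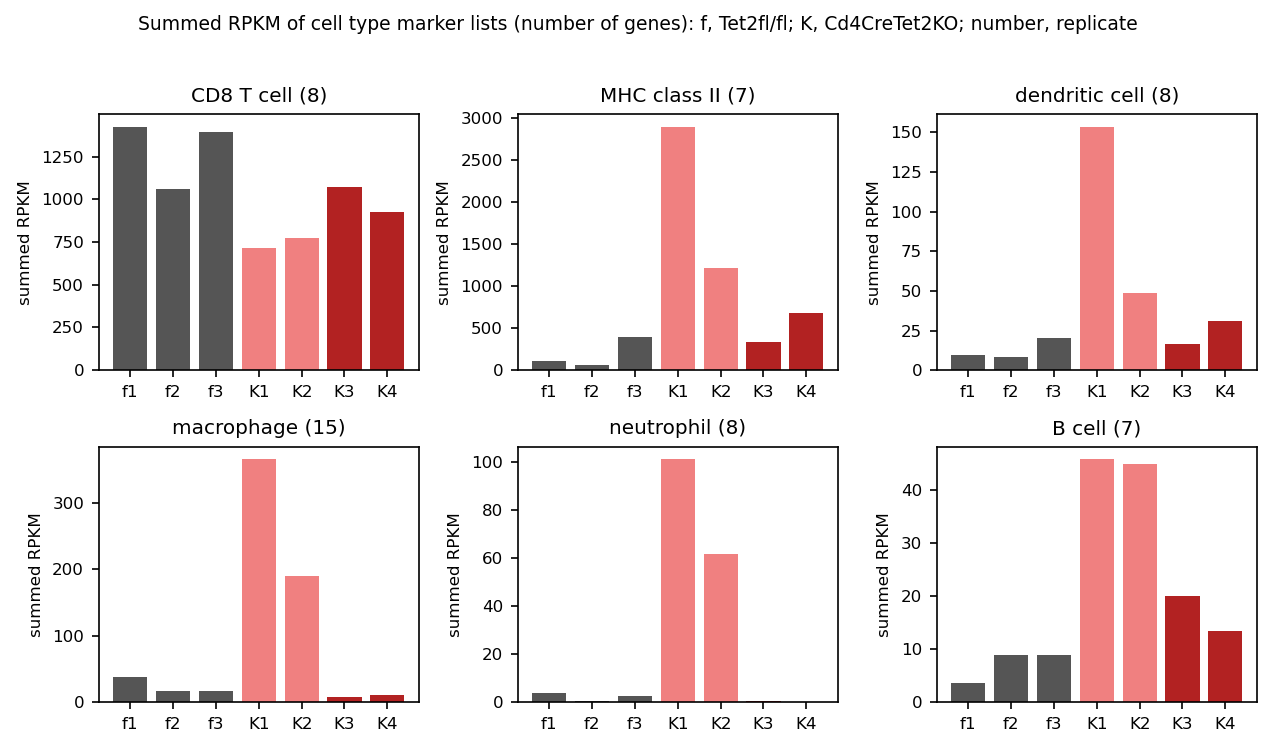
Summed RPKM (vertical axes) of 6 lists of cell type markers in each of the 7 CD8 libraries: f1 to f3 are Tet2fl/fl replicates and K1 to K4 are Cd4CreTet2KO replicates, with replicates 1 and 2 in a paler shade. Macrophage and neutrophil sums are high in K1 (366 and 101 RPKM) and K2 (190 and 62.0 RPKM) and not in the other libraries, whereas CD8 T cell sums lie between 715 and 1425 RPKM in all 7.

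Tet2 itself was at 7.65, 8.06 and 6.57 RPKM in the controls and at 7.57, 4.40, 3.02 and 5.02 RPKM in the knockouts. The control mean was 7.42 ± 0.773 RPKM (SD, n = 3) and the knockout mean 5.0 ± 1.90 RPKM (SD, n = 4), and replicate 1 lay within the range of the controls. The difference of -0.54 on the log2 scale did not pass the test (limma, adjusted p = 0.522). A value over the whole gene does not resolve one deleted exon, so it neither checks nor contradicts the label. Myeloid cells, whose markers were high in replicates 1 and 2, also express Tet2, and their part in these values was not tested. The related enzyme gene Tet3 was at 8.87, 11.5 and 12.1 RPKM in the controls and at 10.1 to 11.7 RPKM in the knockouts. The DNA methyltransferase gene Dnmt3a was at 9.15 to 11.4 RPKM in the controls and at 3.92 to 7.97 RPKM in the knockouts, with no overlap, and did not pass the test. None of the 11 tested genes of the TET and DNA methylation list passed in limma, where 1 was higher and 2 were lower at an unadjusted p under 0.05, and none did by edgeR and 1 by DESeq2 on recovered reads.

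Across the CD8 transcriptome, 50 genes fell and 8 rose in Cd4CreTet2KO cells. They were 0.489% and 0.0782% of the 10224 genes tested (together 0.567%; limma with a trend on log2(RPKM + 1), Benjamini-Hochberg adjusted p under 0.05). All 10 CD8 libraries were in the fit, and a gene was tested if 3 or more of them reached 1 RPKM. Among the genes that fell were the exhaustion factors Tox and Tox2, the killing gene Prf1, the chemokine Ccl3, the chemokine receptors Cx3cr1 and Ccr8, and the heat shock cochaperone Bag3. Those that rose were Klf3, Hmgn1, Aff3, Rasa3, H2-DMb1, Fgd2, Alox5ap and Cox6a2. The changes of the genes that fell ran from 1.18 to 3.17 in size on the log2(RPKM + 1) scale, and those of the genes that rose from 1.09 to 3.41. For all 58 genes the knockout and control libraries did not overlap, a pattern that 14.0% of tested genes showed with the knockouts lower and 3.85% with the knockouts higher. At an unadjusted p under 0.05, 8.70% of tested genes were lower and 3.70% higher.

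The number of genes that passed depended on which libraries were in the fit. Without Cd4CreTet2KO replicates 1 and 2 in the same fit no gene passed (limma, 9817 tested, 782 at an unadjusted p under 0.05). With only the 7 compared libraries in the fit, 54 genes rose and 232 fell (0.555% and 2.38% of 9738), the 58 among them. When replicates 1 and 2 were also left out of that fit, 9 rose and 79 fell (0.0982% and 0.862% of 9163), among them 31 of the 50 lower and 3 of the 8 higher genes. No gene passed in limma without Tet2fl/fl replicate 1, Tet2fl/fl replicate 3 or Cd4CreTet2KO replicate 2 (753, 928 and 854 at an unadjusted p under 0.05), and without Tet2fl/fl replicate 2, Cd4CreTet2KO replicate 1 or Cd4CreTet2KO replicate 3 there were 2, 17 and 13. Every call below shares these limits. Where a list is described as having no gene that passed in limma with all 10 libraries, edgeR on recovered reads gave none either. For such a list the count by DESeq2 on those reads is named.

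The balance of higher and lower genes also depended on scaling. The median difference of all tested genes was -0.155 on the log2 scale as deposited and 0.003 after RPKM was divided by size factors, which gave 22 higher and 50 lower genes (0.216% and 0.491% of 10181). In reads recovered from the RPKM values, edgeR's quasi-likelihood test gave 36 higher and 28 lower genes (0.267% and 0.208% of 13483). Of the 58 genes, 55 passed with size factors and 31 by edgeR. Differences below are to be read against the median of -0.155. Of all 10224 genes tested, 6814 had a negative difference (66.6%), and counts of negative differences in a list are to be read against that share.

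**Figure D2:**
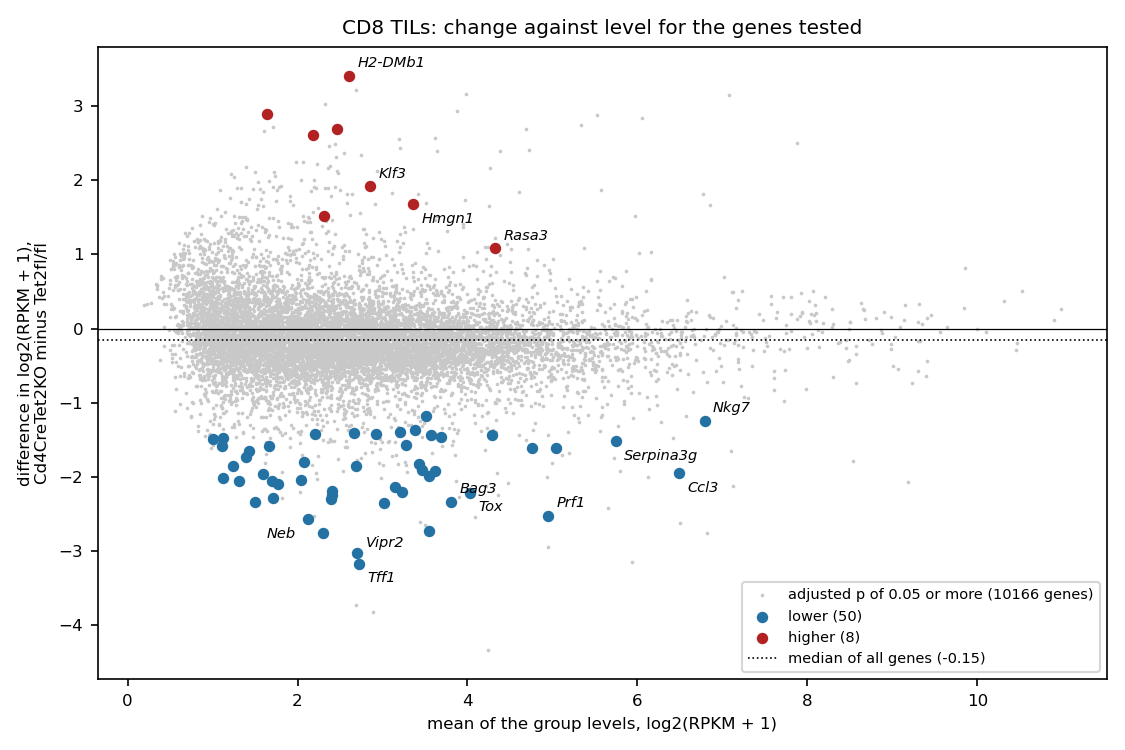
Difference between Cd4CreTet2KO and Tet2fl/fl CD8 cells (vertical axis, log2(RPKM + 1)) against the mean level of the groups (horizontal axis, same scale) for the 10224 genes tested. The 50 genes that fell (blue) extend to levels as high as those of Nkg7 and Ccl3, Rasa3 has the highest mean level of the 8 that rose (red), and the dotted line marks the median of all genes.

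Tox, Tox2 and Prdm1, transcription factors of the exhausted state, fell. Tox, which establishes the exhausted state of T cells, was at 44.5, 25.1 and 33.7 RPKM in the controls and at 8.52, 5.36, 5.70 and 6.61 RPKM in the knockouts. Every knockout library was thus under every control by a wide margin. Tox fell by 2.21 ± 0.36 (SE) on the log2 scale (limma, adjusted p = 0.0266), and the difference was -2.27 without replicates 1 and 2. Its relative Tox2 was at 10.5, 12.3 and 7.96 RPKM in the controls and at 2.18, 0.876, 2.05 and 0.909 RPKM in the knockouts. Tox2 fell by 2.20 ± 0.33 (limma, adjusted p = 0.0266), again with no overlap. Prdm1, which encodes the repressor Blimp-1 of terminally differentiated cells, was at 12.1, 10.1 and 10.7 RPKM in the controls and at 3.83, 1.81, 1.11 and 3.19 RPKM in the knockouts. It fell by 1.85 ± 0.37 (limma, adjusted p = 0.0496).

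These were 3 of the 17 exhaustion regulators tested, of which 16 had a negative difference and none rose. The median difference of the list was -0.87, against -0.155 for all genes. The groups did not overlap for 8 of the 17, against 14.0% of all tested genes with the knockouts lower. Id2, an inhibitor of E proteins, was at 84.7 to 122.2 RPKM in the controls and at 34.2 to 71.7 RPKM in the knockouts without passing (limma, adjusted p = 0.117). Nfatc1, a calcium-responsive factor downstream of the T cell receptor, was at 29.6 to 39.5 RPKM in the controls and at 16.2 to 24.9 RPKM in the knockouts, also without overlap (limma, adjusted p = 0.213). Nfatc2 had the 1 positive difference, with 8.71 to 9.69 RPKM in the controls and 8.39 to 11.9 RPKM in the knockouts. Eomes, Irf4, Batf and Maf overlapped between the groups and none of them passed. Without replicates 1 and 2 the median was -0.49 and 13 of the 17 differences were negative.

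**Figure D3:**
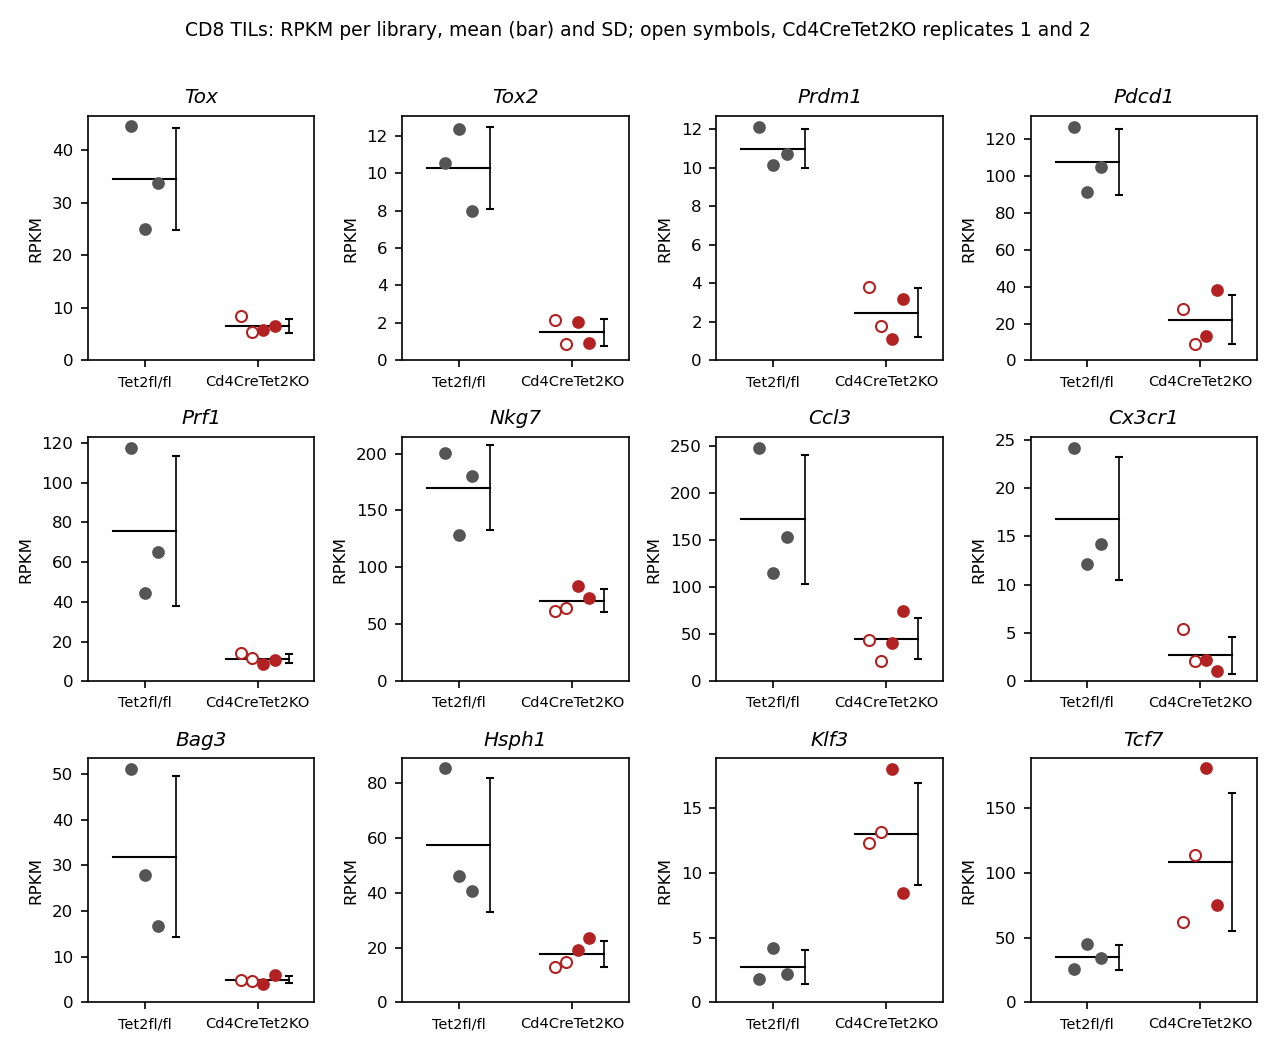
RPKM (vertical axes, each from 0) of 12 genes in every library, with the group mean as a bar and the SD beside it (n = 3 Tet2fl/fl, n = 4 Cd4CreTet2KO, replicates 1 and 2 as open symbols). No panel has a knockout point within the range of the controls: in 10 panels the knockouts lie under the controls, and for Klf3 and Tcf7 they lie above. Pdcd1 and Tcf7 did not pass the test.

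Of 13 inhibitory receptors tested, 1 fell and 10 had negative differences, a share near the 66.6% of all genes. Cd200r1, a receptor that restrains immune cells on binding CD200, was at 11.7, 9.60 and 12.7 RPKM in the controls and at 5.67, 2.98, 2.55 and 3.59 RPKM in the knockouts. It fell by 1.43 ± 0.28 (limma, adjusted p = 0.0470). Pdcd1, which encodes PD-1, was at 127, 91.5 and 105 RPKM in the controls and at 27.8, 9.08, 13.4 and 38.4 RPKM in the knockouts. The highest knockout library was thus well under the lowest control, yet the knockout libraries differed several-fold among themselves. The difference in Pdcd1 of -2.42 ± 0.51 had an adjusted p of 0.0607 in limma with all 10 CD8 libraries, and of 0.0185 with only the 7 compared.

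Tigit, another receptor that dampens T cells, was at 154, 103 and 63.8 RPKM in the controls and at 31.8, 13.5, 27.3 and 37.8 RPKM in the knockouts (limma, adjusted p = 0.0684). Havcr2, which encodes TIM-3, was at 79.0, 43.7 and 46.7 RPKM in the controls and at 29.7, 8.81, 5.68 and 17.0 RPKM in the knockouts (limma, adjusted p = 0.101). Lag3, which binds MHC class II, was at 81.7, 39.8 and 51.3 RPKM in the controls and at 28.7, 9.32, 11.0 and 17.0 RPKM in the knockouts (limma, adjusted p = 0.147). None of these 3 receptors overlapped between groups, and none passed. Ctla4, which competes with CD28 for its ligands, did overlap: replicate 4 stood at 64.8 RPKM, within the control range of 53.7 to 81.4 RPKM, while the other knockouts were at 10.1 to 26.7 RPKM. The list median was -1.39, and -1.15 without replicates 1 and 2. Of the 13 differences 10 were negative, and 9 were lower and 2 higher at an unadjusted p under 0.05. Both of the higher ones, Btla and Lair1, are also expressed by myeloid or B cells, and their highest levels were in replicate 1, at 18.4 and 8.78 RPKM. The part of such cells in these differences was not tested, nor was it for the receptors that were lower.

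With only the 7 compared libraries in the fit, 6 of the 13 inhibitory receptors fell, and 4 of 12 did so when replicates 1 and 2 were left out as well. Surface genes of terminal exhaustion had negative differences too. Entpd1, which encodes the ectoenzyme CD39, was at 15.5, 8.30 and 12.1 RPKM in the controls and at 7.94, 3.43, 1.26 and 3.03 RPKM in the knockouts. Cxcr6, a chemokine receptor of tissue-resident T cells, was at 55.2 to 79.1 RPKM in the controls and at 20.5 to 37.1 RPKM in the knockouts. All 5 genes of that list had negative differences with a median of -1.03 (-0.72 without replicates 1 and 2). None passed in limma (4 lower at an unadjusted p under 0.05) or by DESeq2.

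Among genes of cytotoxic granules, the pore-forming protein and a granule membrane protein fell while the granzymes did not pass. Prf1, which encodes perforin, was at 117, 44.3 and 65.1 RPKM in the controls and at 14.5, 11.7, 8.88 and 10.8 RPKM in the knockouts. All 4 knockout libraries lay close together and far under the lowest control. Prf1 fell by 2.52 ± 0.36 (limma, adjusted p = 0.0203) and its mean level was 6.59-fold lower, 11.5 ± 2.32 RPKM (SD, n = 4) against 75.6 ± 37.7 RPKM (SD, n = 3). Nkg7, which encodes a granule protein needed for degranulation, was at 201, 129 and 181 RPKM in the controls and at 61.4, 64.2, 83.8 and 73.2 RPKM in the knockouts. It fell by 1.24 ± 0.25 (limma, adjusted p = 0.0496). Gzmb, the granzyme that triggers caspases in target cells, was at 151, 176 and 406 RPKM in the controls and at 106, 133, 170 and 205 RPKM in the knockouts, and these ranges overlapped (limma, adjusted p = 0.624). Gzma was at 75, 105 and 278 RPKM in the controls and at 35.8 to 61.1 RPKM in the knockouts (limma, adjusted p = 0.227), where 1 control library was well above the other controls.

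Of the 20 genes on the cytotoxic list, 16 passed the filter on low values, 13 of them had negative differences and 2 fell. The list median was -0.83, and -0.71 without replicates 1 and 2. Of the NK receptor genes that T cells also carry, 16 of 20 were tested, with 8 positive and 8 negative differences, and 1 fell. That gene was Crtam, an adhesion receptor of activated CD8 and NK cells, at 15.9, 15.8 and 15.4 RPKM in the controls and at 5.15, 3.90, 4.26 and 5.32 RPKM in the knockouts. Both groups were tight, and Crtam fell by 1.57 ± 0.27 (limma, adjusted p = 0.0320). Klrc1, an inhibitory lectin-like receptor, was at 35.7 to 68.7 RPKM in the controls and at 18.3 to 33.5 RPKM in the knockouts without passing. Tyrobp, an adaptor found in NK and myeloid cells, was at 0.708 to 6.56 RPKM in the controls and at 84.1, 21.9, 10.6 and 11.0 RPKM in the knockouts, with its highest levels in replicates 1 and 2.

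Among the secreted products of CD8 cells, Ccl3 fell. Ccl3, a chemokine that attracts monocytes and T cells, was at 248, 115 and 153 RPKM in the controls and at 44.0, 21.9, 40.5 and 75.2 RPKM in the knockouts. It fell by 1.95 ± 0.38 (limma, adjusted p = 0.0470), and the groups did not overlap. Ccl4, its close relative, was at 113, 86.1 and 91.9 RPKM in the controls and at 52.9, 23.4, 39.9 and 81.0 RPKM in the knockouts, so that replicate 4 nearly reached the lowest control (limma, adjusted p = 0.176). Ccl1, the ligand of CCR8, was at 291, 260 and 213 RPKM in the controls and at 86.9, 8.31, 38.7 and 60.9 RPKM in the knockouts (limma, adjusted p = 0.227). Ccl5, the most abundant of these chemokines, was at 711 to 899 RPKM in the controls and at 439 to 496 RPKM in the knockouts. All 5 chemokines had negative differences, and the median was -1.09 (-0.76 without replicates 1 and 2). The groups did not overlap for 4 of them, against 14.0% of all tested genes with the knockouts lower.

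The cytokine gene Ifng was at 163, 86.0 and 138 RPKM in the controls and at 24.0, 13.8, 32.3 and 76.2 RPKM in the knockouts. Its difference of -2.01 ± 0.49 did not pass (limma, adjusted p = 0.0954), and without replicates 1 and 2 it was -1.31. Csf2, which encodes the growth factor GM-CSF, was at 35.1, 16.0 and 19.3 RPKM in the controls and at 7.30, 0.212, 1.96 and 5.95 RPKM in the knockouts (limma, adjusted p = 0.117). Tnf overlapped between groups, with 18.5 to 24.7 RPKM in the controls and 8.35, 8.44, 21.0 and 22.7 RPKM in the knockouts. Its low levels were those of replicates 1 and 2, the libraries with high macrophage sums. None of the 9 tested cytokine genes of 12 passed in limma, where 4 were lower at an unadjusted p under 0.05, while by DESeq2 1 rose and 1 fell. Il2, Il10 and Il21 were under the filter.

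Promoter sequences are shown for 3 of the genes that passed, because TET2 acts on methylated CG dinucleotides and these promoters differ widely in how many they hold. The sequences are RefSeq's, from build GRCm38.p6, and cover up to 250 bases before the annotated start, with CG in capitals. Prf1 lies on the plus strand at chr10:61297586-61297832, Ccl3 on the minus strand at chr11:83649379-83649628 and Hmgn1 on the minus strand at chr16:96127730-96127975. Each is written in the direction of the gene.
Prf1: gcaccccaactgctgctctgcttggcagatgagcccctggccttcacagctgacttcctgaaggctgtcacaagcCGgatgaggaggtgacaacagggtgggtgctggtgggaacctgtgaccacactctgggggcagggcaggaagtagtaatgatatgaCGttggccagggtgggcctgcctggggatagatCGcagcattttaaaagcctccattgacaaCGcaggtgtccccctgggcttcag
Ccl3: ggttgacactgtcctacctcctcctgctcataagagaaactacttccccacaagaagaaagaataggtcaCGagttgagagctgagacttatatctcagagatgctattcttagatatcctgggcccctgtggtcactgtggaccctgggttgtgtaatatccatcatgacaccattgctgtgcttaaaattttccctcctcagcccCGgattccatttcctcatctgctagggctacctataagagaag
Hmgn1: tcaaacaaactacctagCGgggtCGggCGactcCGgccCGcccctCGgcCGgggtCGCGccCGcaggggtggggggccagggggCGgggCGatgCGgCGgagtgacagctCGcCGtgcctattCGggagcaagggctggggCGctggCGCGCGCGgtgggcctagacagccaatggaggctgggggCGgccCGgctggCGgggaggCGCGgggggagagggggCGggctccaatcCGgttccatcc
Prf1 and Ccl3, which fell, hold 4 and 2 CG in these windows, and Hmgn1, which rose, holds 29. Some other genes that passed went the opposite way. H2-DMb1 and Fgd2, which rose, hold 3 and 4 CG, and Igfbp7 and Cdk6, which fell, hold 26 and 22. Over the 7929 tested genes with a promoter in the RefSeq table the median was 16.5 CG. It was 13.0 (quartiles 4.0 and 20.5) for the 39 lower genes with a promoter there and 20.5 (quartiles 7.5 and 28.25) for the 6 higher. These ranges overlap. The median was 3.5 for 14 cytotoxic genes and 14.5 for 16 naive and memory genes. No methylation was measured in these libraries, and the count of CG is a description of the sequence only. Tox, Cd200r1 and Crtam were not in that table.

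Chemokine receptors went both ways. Cx3cr1, the fractalkine receptor of effector cells, was at 24.1, 12.2 and 14.2 RPKM in the controls and at 5.40, 2.08, 2.19 and 1.06 RPKM in the knockouts. It fell by 2.35 ± 0.37 (limma, adjusted p = 0.0266), and the difference was -2.74 without replicates 1 and 2. Ccr8, the receptor of Ccl1, was at 23.1, 16.8 and 12.5 RPKM in the controls and at 3.40, 2.62, 1.77 and 5.35 RPKM in the knockouts. It fell by 2.13 ± 0.37 (limma, adjusted p = 0.0320). Of the 13 receptors tested out of 16, 8 had positive and 5 negative differences, and none rose. S1pr1, which lets T cells leave tissue toward the blood, was at 5.18, 7.76 and 5.59 RPKM in the controls and at 12.6, 24.4, 31.3 and 14.2 RPKM in the knockouts. Its groups did not overlap, and it did not pass with all 10 libraries (limma, adjusted p = 0.269). Ccr2, a receptor of monocytes and of some T cells, was at 1.77 to 2.02 RPKM in the controls and at 24.3, 12.7, 3.94 and 5.02 RPKM in the knockouts, highest where macrophage markers were high.

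Among costimulatory receptors, Tnfrsf18, which encodes GITR, fell. It was at 61.7, 36.7 and 40.1 RPKM in the controls and at 16.5, 9.19, 13.3 and 19.0 RPKM in the knockouts, a change of -1.61 ± 0.32 (limma, adjusted p = 0.0476). Tnfrsf9, which encodes the activation marker 4-1BB, was at 43.7, 30.0 and 49.5 RPKM in the controls and at 15.2, 2.60, 6.85 and 11.3 RPKM in the knockouts (limma, adjusted p = 0.0631). Tnfrsf4, which encodes OX40, was at 43.9, 36.9 and 32.7 RPKM in the controls and at 7.99, 1.86, 5.99 and 9.77 RPKM in the knockouts (limma, adjusted p = 0.174). These receptors of the TNF family, and Cd27 at 32.8 to 58.3 RPKM in the controls and 13.8 to 20.2 RPKM in the knockouts, did not overlap between groups. Cd28 and Icos, by contrast, overlapped, with 13.5 to 21.6 RPKM against 10.1 to 16.8 RPKM for Cd28. Of the 16 tested genes of the list 12 had negative differences, 1 fell, and the median was -0.59 (-0.37 without replicates 1 and 2). The share of negative differences was thus near that of all genes (66.6%). With only the 7 compared libraries in the fit 5 fell.

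The receptor of interleukin 18, a cytokine that raises interferon gamma production, was lower in its accessory chain. Il18rap was at 22.9, 17.5 and 15.2 RPKM in the controls and at 5.26, 6.42, 6.07 and 7.04 RPKM in the knockouts, and fell by 1.43 ± 0.26 (limma, adjusted p = 0.0345). The partner chain Il18r1 was at 30.7, 22.8 and 18.3 RPKM in the controls and at 8.46, 11.2, 11.8 and 13.2 RPKM in the knockouts without passing (limma, adjusted p = 0.0954). All 5 tested genes of 9 on the list of interleukin 18, 1 and 12 receptors had negative differences. Their median was -1.02 (-0.86 without replicates 1 and 2). Il2rb, a chain of the receptors of interleukins 2 and 15, was at 126 to 163 RPKM in the controls and at 39.4 to 86.3 RPKM in the knockouts, and Cish, a feedback gene of that pathway, at 23.2 to 30.9 RPKM and 9.92 to 13.9 RPKM. Neither passed with all 10 libraries, and none of the 15 tested genes of the list of interleukin 2 and 7 signalling did in limma (1 higher and 6 lower at an unadjusted p under 0.05), while 1 fell by DESeq2.

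Klf3 rose among the genes of naive and memory T cells, and nearly all of the others had positive differences. Klf3, a repressor of the Krüppel-like family found in resting lymphocytes, was at 1.77, 4.22 and 2.17 RPKM in the controls and at 12.3, 13.2, 18.0 and 8.43 RPKM in the knockouts. Klf3 rose by 1.92 ± 0.34 (limma, adjusted p = 0.0343), was higher in all 4 knockout libraries than in any control, and differed by 1.90 without replicates 1 and 2. It was the 1 gene of the 20 on the list that passed. Another 11 were higher at an unadjusted p under 0.05, 19 of 20 differences were positive, and the median was 0.98 against -0.155 for all genes. Bcl2, a survival gene, had the 1 negative difference, with 15.9 to 23.8 RPKM in the controls and 10.3 to 16.1 RPKM in the knockouts.

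Tcf7, which encodes TCF1, the factor of stem-like CD8 cells, was at 25.6, 44.8 and 34.6 RPKM in the controls and at 62.3, 114, 181 and 75.7 RPKM in the knockouts. The groups were separate, and the knockouts spread almost as widely among themselves as from the controls (limma, adjusted p = 0.138). Myb, a factor that keeps stem-like cells self-renewing, was at 1.66, 2.42 and 1.38 RPKM in the controls and at 7.63, 3.66, 6.87 and 6.12 RPKM in the knockouts (limma, adjusted p = 0.0911). Neither Tcf7 nor Myb overlapped between groups, and neither passed with all 10 libraries. Il7r, the receptor that sustains resting T cells, was at 18.1 to 29.1 RPKM in the controls and at 34.4 to 59.8 RPKM in the knockouts, and Satb1, a chromatin organiser of T cells, at 2.99 to 6.47 RPKM and 8.17 to 23.02 RPKM. Lef1, Klf2 and Ccr7 overlapped. With only the 7 compared libraries in the fit 5 of the 20 rose. When replicates 1 and 2 were also left out none of the 20 passed in limma, Klf3 included (15 higher at an unadjusted p under 0.05), with a median of 1.10 and 19 of 20 positive.

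**Figure D4:**
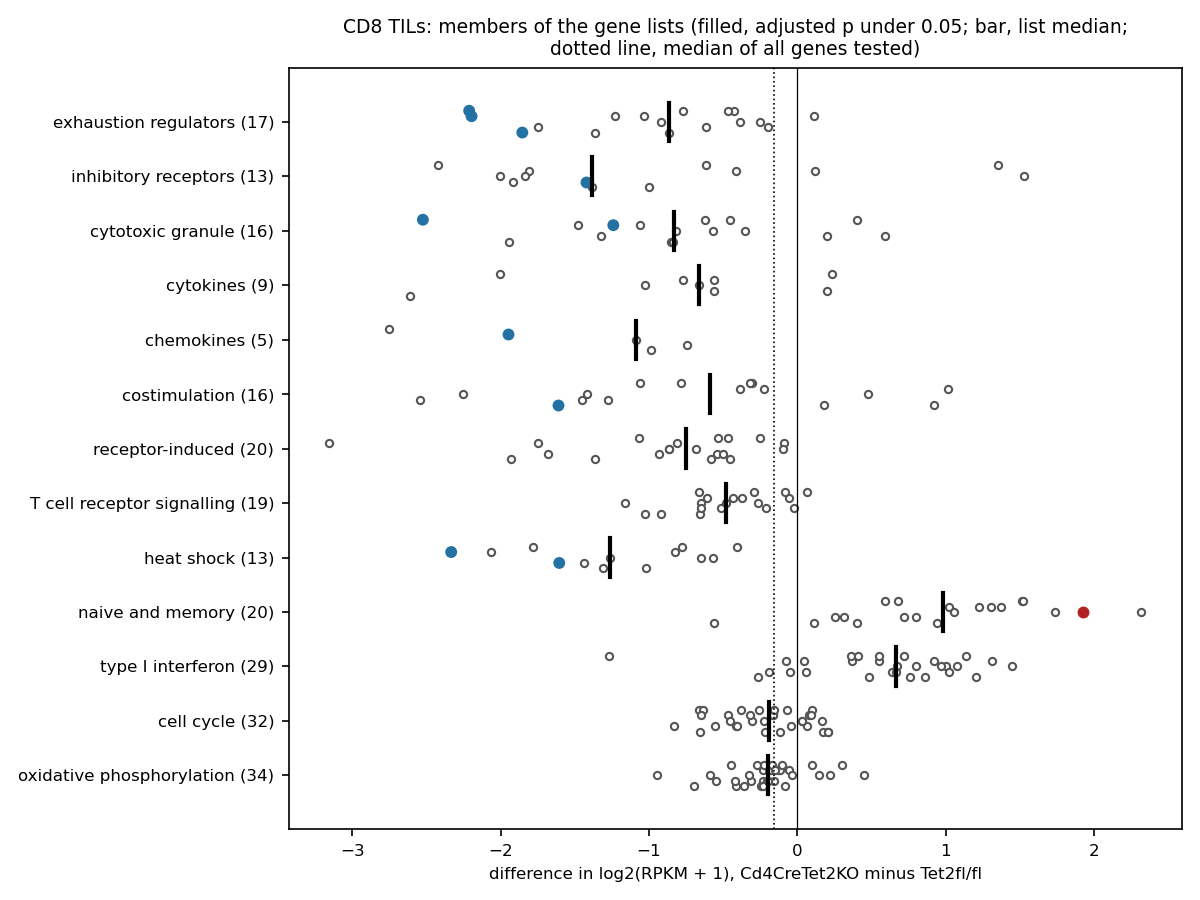
Difference between Cd4CreTet2KO and Tet2fl/fl CD8 cells (horizontal axis, log2(RPKM + 1)) for the tested members of 13 gene lists, 1 point per gene, filled where the limma adjusted p was under 0.05, with the list median as a bar. The inhibitory receptor and heat shock medians lie at -1.39 and -1.26 and the naive and memory median at 0.98, while those of cell cycle (-0.19) and oxidative phosphorylation (-0.20) lie near the median of all genes, -0.155 (dotted).

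Other genes that rose included Hmgn1, a nucleosome-binding protein, at 5.30, 5.72 and 3.34 RPKM in the controls and 17.7, 17.5, 20.3 and 13.6 RPKM in the knockouts. Hmgn1 rose by 1.67 ± 0.26 (limma, adjusted p = 0.0266). Aff3, a nuclear protein first described in lymphoid cells, was at 1.21, 2.46 and 2.11 RPKM in the controls and at 8.17, 8.16, 8.34 and 4.80 RPKM in the knockouts. It rose by 1.51 ± 0.28 (limma, adjusted p = 0.0347), with replicate 4 nearest to the controls. Rasa3, which turns off the GTPases Ras and Rap1, was at 11.0, 14.2 and 12.8 RPKM in the controls and at 25.6, 28.7, 35.1 and 23.4 RPKM in the knockouts. It rose by 1.09 ± 0.22 (limma, adjusted p = 0.0496). Klf3 too was lowest in replicate 4, at 8.43 RPKM, and highest in replicate 3, at 18.0 RPKM.

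The remaining genes that rose were ones that T cells express little. H2-DMb1, which encodes a chain of the chaperone that loads MHC class II, was listed at 0, 0.369 and 1.82 RPKM in the controls and was at 47.5, 16.7, 6.08 and 11.6 RPKM in the knockouts. It rose by 3.41 ± 0.59 (limma, adjusted p = 0.0320), with its highest level in the library richest in macrophage and MHC class II transcripts. Fgd2, an exchange factor of antigen-presenting cells, was at 0.280 to 1.48 RPKM in the controls and at 21.0, 8.86, 4.65 and 8.13 RPKM in the knockouts (limma, adjusted p = 0.0288). Alox5ap, which serves leukotriene synthesis in myeloid cells, was at 0.340 to 2.20 RPKM in the controls and at 32.4, 11.5, 4.03 and 8.85 RPKM in the knockouts (limma, adjusted p = 0.0470). Cox6a2 was listed at 0 in every control and was at 21.4, 6.62, 2.65 and 3.90 RPKM in the knockouts (limma, adjusted p = 0.0448). In each of these genes replicate 1 was highest and replicate 3 lowest, the order of the summed MHC class II genes.

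All 7 MHC class II genes had positive differences, with a median of 2.84 (1.905 without replicates 1 and 2), and 1 passed. The antigen-presenting molecule H2-Aa was at 12.9, 7.47 and 53.1 RPKM in the controls and at 387, 161, 48.6 and 96.8 RPKM in the knockouts, so that Tet2fl/fl replicate 3 overlapped with Cd4CreTet2KO replicate 3. Dendritic cell genes summed to 8.17 to 20.3 RPKM in the controls and to 154, 48.6, 16.4 and 31.3 RPKM in the knockouts. Flt3, a growth factor receptor of dendritic cells and their progenitors, was at 0.920, 0.591 and 2.65 RPKM in the controls and at 31.0, 9.83, 5.31 and 7.11 RPKM in the knockouts (limma, adjusted p = 0.0631). Siglech, a surface protein of plasmacytoid dendritic cells, was at 0.804 to 5.64 RPKM in the controls and at 59.3, 16.9, 6.11 and 8.42 RPKM in the knockouts. B cell genes summed to 3.67 to 8.90 RPKM in the controls and to 45.9, 44.9, 19.99 and 13.5 RPKM in the knockouts. Of the 8 dendritic cell genes, 6 were above every control in both replicates 1 and 2, and 2 in both replicates 3 and 4. Of all 10224 genes tested, 1129 and 930 were. Another 2 of the 8 were under every control in both replicates 3 and 4, and 2 of the 8 group differences were negative. The part of such cells in the differences above was not tested. Without replicates 1 and 2, the 50 genes that fell had 0.782 to 1.17 times their change (median 0.979) and the 8 that rose 0.714 to 1.04 times (median 0.848). These 58 genes were called with all 4 knockout libraries in the fit, and none overlapped between groups. A change kept in replicates 3 and 4 thus follows in part from that choice of genes.

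Bag3 and Hsph1 fell among the heat shock genes, all of which had negative differences. Bag3, a cochaperone of HSP70, was at 51.2, 27.9 and 16.7 RPKM in the controls and at 4.99, 4.77, 4.07 and 6.06 RPKM in the knockouts. It fell by 2.33 ± 0.37 (limma, adjusted p = 0.0266). Hsph1, which encodes the large chaperone HSP110, was at 85.5, 46.2 and 40.5 RPKM in the controls and at 13.0, 14.8, 19.2 and 23.6 RPKM in the knockouts. It fell by 1.60 ± 0.30 (limma, adjusted p = 0.0441). Hspa1a, an inducible HSP70 gene, was at 822, 724 and 525 RPKM in the controls and at 180, 217, 177 and 217 RPKM in the knockouts. The groups were far apart, but Hspa1a did not pass with all 10 libraries (limma, adjusted p = 0.176) and did with only the 7 compared (limma, adjusted p = 0.00545). The Vav1CreTet2KO libraries, which share the fit, were at 25.8, 58.6 and 256 RPKM. Hspa1a and its near-identical neighbour Hspa1b, at 930 to 1434 RPKM in the controls and 228 to 322 RPKM in the knockouts, may share reads, so the split between them is uncertain.

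All 13 heat shock genes had negative differences, and 2 fell. The groups did not overlap for 11 of them, against 14.0% of all tested genes with the knockouts lower. The median was -1.26, and without replicates 1 and 2 it was -1.11. As a share of recovered reads the 13 genes made up 2.87%, 2.66% and 2.13% in the controls and 1.08%, 1.29%, 1.44% and 1.42% in the knockouts, or 2.55% ± 0.380 (SD, n = 3) against 1.31% ± 0.167 (SD, n = 4). The constitutive chaperone Hspa8 was at 708 to 986 RPKM in the controls and at 413 to 623 RPKM in the knockouts, and with a difference of -0.65 it did not pass (adjusted p of 0.356 by limma). The HSP90 gene Hsp90ab1 was at 688 to 909 RPKM in the controls and at 402 to 645 RPKM in the knockouts, also without overlap (limma, adjusted p = 0.453).

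The promoters of Hspa1a and Bag3 are shown because heat shock factors bind repeats of GAA and its complement TTC. In the 250 bases before the start (RefSeq, GRCm38.p6), the motifs GAANNTTC and TTCNNGAA, each of which reads the same on both strands, were searched and are in capitals. Hspa1a lies on the minus strand at chr17:34972157-34972406 and Bag3 on the plus strand at chr7:128523333-128523582.
Hspa1a: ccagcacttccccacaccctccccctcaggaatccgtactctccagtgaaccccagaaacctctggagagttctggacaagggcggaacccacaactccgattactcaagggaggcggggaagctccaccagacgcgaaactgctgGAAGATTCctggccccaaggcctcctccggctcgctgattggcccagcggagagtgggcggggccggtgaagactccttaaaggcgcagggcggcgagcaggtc
Bag3: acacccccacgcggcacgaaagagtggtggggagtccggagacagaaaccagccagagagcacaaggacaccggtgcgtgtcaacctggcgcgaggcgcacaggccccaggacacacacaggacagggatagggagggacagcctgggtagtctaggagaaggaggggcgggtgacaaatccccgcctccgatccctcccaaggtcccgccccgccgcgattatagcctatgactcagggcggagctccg
The Hspa1a window holds 1 match, and these letters are not in the Bag3 window. Of the 10 tested heat shock genes with a promoter in the table, 8 held at least 1 match, or 80%, against 11.9% of the 7929 tested genes. The heat shock genes were listed for their known function, so their share is not a result of these libraries. Of the 39 genes that fell with a promoter there, 5 held a match (12.8%), near the share of all tested genes. A match describes the letters and does not show that a factor bound.

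Genes induced by a recent signal through the T cell receptor varied among the knockout libraries. Nr4a1, a receptor-induced nuclear factor, was at 100, 94.1 and 80.8 RPKM in the controls and at 57.6, 34.6, 96.1 and 177 RPKM in the knockouts. Nr4a2 was at 67.8 to 80.4 RPKM in the controls and at 14.6, 4.75, 30.6 and 93.2 RPKM in the knockouts. Replicate 4 was thus above every control in both genes, and replicate 2 was the lowest library. Over the 20 genes of the list, the median difference from the control mean was -1.11, -1.47, -0.62 and 0.11 in replicates 1 to 4. Of the 20 genes, 19 were under every control in both replicates 1 and 2, and 4 in both replicates 3 and 4. Of all 10224 genes tested, 2589 and 2672 were, so the 4 were not above the share of all genes. All 20 group differences were negative, with a median of -0.75 (-0.27 without replicates 1 and 2). None passed in limma (8 lower at an unadjusted p under 0.05), and 2 fell by DESeq2.

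Rgs16, a brake on signals from G protein-coupled receptors, was the member of that list with the largest difference. It was at 228, 136 and 127 RPKM in the controls and at 20.5, 4.31, 19.8 and 42.2 RPKM in the knockouts, all under the controls (limma, adjusted p = 0.0863). Spry1, an inhibitor of MAP kinase signalling, also did not overlap, with 12.1 to 25.9 RPKM in the controls and 2.18 to 4.92 RPKM in the knockouts (limma, adjusted p = 0.0687). The AP-1 list also divided the knockouts, with medians of -0.93 and -0.86 in replicates 1 and 2 and of 0.11 and 0.17 in replicates 3 and 4. Replicate 3 differed between the lists, as its receptor-induced median was -0.62. Junb, an AP-1 subunit, was at 373 to 395 RPKM in the controls, at 169 and 146 RPKM in replicates 1 and 2 and at 503 and 523 RPKM in replicates 3 and 4. Cd69, an early activation marker, was at 46.1 to 76.5 RPKM in the controls, at 27.4 and 34.6 RPKM in replicates 1 and 2 and at 103 and 106 RPKM in replicates 3 and 4. Of the 17 exhaustion regulators, 15 were under every control in both replicates 1 and 2 and 8 in both replicates 3 and 4. For the 13 inhibitory receptors these counts were 9 and 9, and for the 13 heat shock genes 12 and 11. Of the 20 naive and memory genes, 11 were above every control in both replicates 1 and 2 and 15 in both replicates 3 and 4. For all 10224 genes tested, the counts under every control were 2589 and 2672, and those above every control 1129 and 930.

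**Figure D5:**
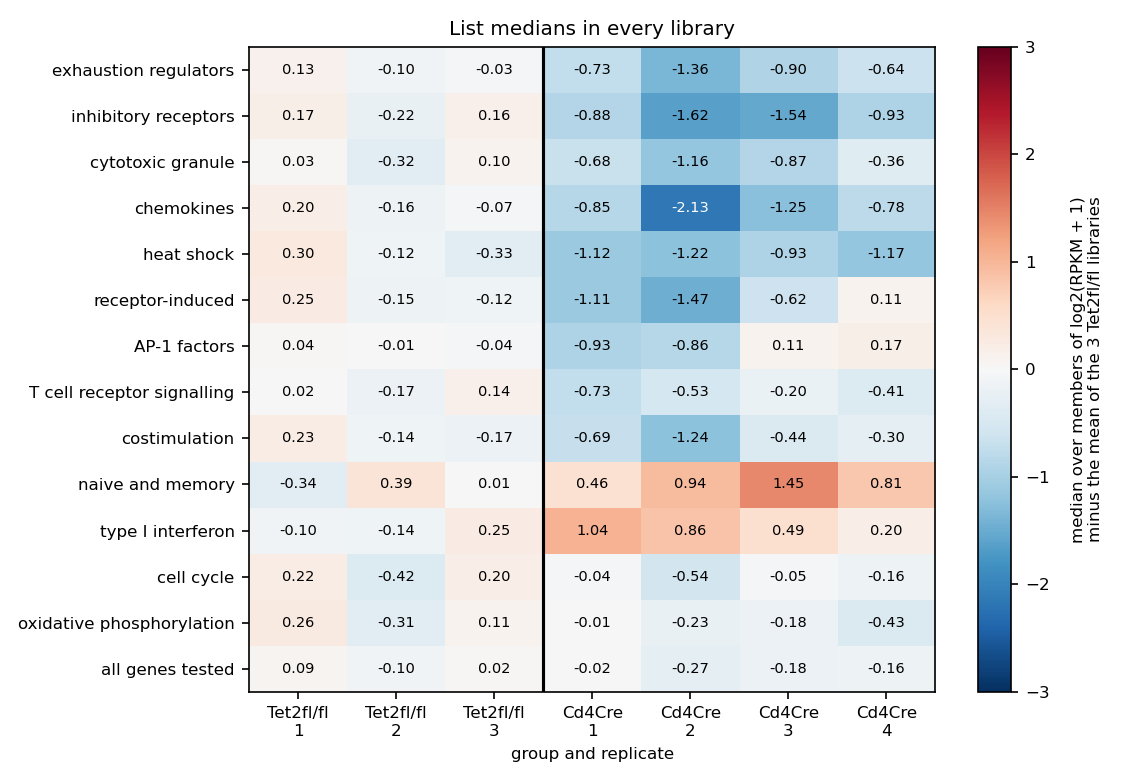
Median over the members of 14 gene lists of log2(RPKM + 1) minus the mean of the 3 Tet2fl/fl libraries, in each of the 7 CD8 libraries (columns), with blue for lower and red for higher values. Heat shock medians are at -0.93 to -1.22 in all 4 knockout libraries, whereas the AP-1 and receptor-induced medians are low in replicates 1 and 2 (-0.86 to -1.47) and at -0.62 to 0.17 in replicates 3 and 4.

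Of the 19 genes of the receptor complex and its signalling 18 had negative differences, with a median of -0.48. None passed in limma (7 lower at an unadjusted p under 0.05), and 2 fell by DESeq2. Cd8b1, the other chain of CD8, overlapped between the groups, with 156 to 198 RPKM in the controls and 128 to 182.5 RPKM in the knockouts. Cd3d, a subunit of CD3, was at 26.6 to 35.6 RPKM in the controls and at 24.6 to 42.2 RPKM in the knockouts. Zap70, the kinase recruited to the engaged receptor, was lower in every knockout library, at 44.6 to 75.6 RPKM in the controls and 23.9 to 31.4 RPKM in the knockouts (limma, adjusted p = 0.0661). Cd8a, described above, did not overlap either (limma, adjusted p = 0.110).

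Of the 10 effector and lineage factors 9 had negative differences. None passed in limma (3 lower at an unadjusted p under 0.05), and 2 fell by DESeq2. Tbx21, which encodes T-bet, was at 31.3 to 43.4 RPKM in the controls and at 11.5 to 28.5 RPKM in the knockouts. Bhlhe40, a factor of cytokine production, was at 170 to 313 RPKM in the controls and at 33.5 to 142 RPKM in the knockouts, and Runx3, which sets the CD8 lineage, at 35.8 to 39.0 RPKM and 21.5 to 31.4 RPKM. Each of the 3 was without overlap. In the Ikaros family, Ikzf3 was at 87.8, 85.2 and 109 RPKM in the controls and at 43.4, 44.4, 49.7 and 59.5 RPKM in the knockouts (limma, adjusted p = 0.140). Ikzf1, the founding member, was at 19.9 to 22.5 RPKM in the controls and at 21.7 to 25.2 RPKM in the knockouts.

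Among the genes that passed, the largest falls were those of Tff1, Vipr2 and Mrc2. Tff1, a secreted trefoil peptide of mucosal epithelium, was at 36.9, 13.1 and 8.97 RPKM in the controls and at 2.27, 0.0482, 1.54 and 0.628 RPKM in the knockouts, and fell by 3.17 ± 0.59 (limma, adjusted p = 0.0391). Vipr2, a receptor of vasoactive intestinal peptide that lymphocytes express, was at 15.8, 22.4 and 13.3 RPKM in the controls and at 2.65, 0.456, 1.46 and 0.746 RPKM in the knockouts, and fell by 3.02 ± 0.42 (limma, adjusted p = 0.0203). Mrc2, a collagen uptake receptor, was at 14.3, 8.74 and 11.5 RPKM in the controls and at 1.14, 0.123, 0.565 and 1.89 RPKM in the knockouts (limma, adjusted p = 0.0203). No knockout library reached a control for any of these. Neb, which encodes a giant protein of muscle filaments, was at 10.1, 11.2 and 7.56 RPKM in the controls and at 0.510 to 1.02 RPKM in the knockouts, with the smallest adjusted p of all genes (limma, 0.0146). For 17 of the 50 genes that fell, the knockout mean was under 1 RPKM.

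Others that fell have roles in signalling or the cell cycle. Cdk6, a kinase of entry into the cell cycle, was at 22.7, 14.5 and 20.5 RPKM in the controls and at 5.63, 4.07, 3.74 and 5.33 RPKM in the knockouts (limma, adjusted p = 0.0320). Nfat5, a factor of the response to osmotic stress, was at 18.5 to 22.96 RPKM in the controls and at 5.03 to 9.97 RPKM in the knockouts (limma, adjusted p = 0.0496). Ddit4 and Fkbp5, both induced by glucocorticoids, were at 13.4 to 18.9 and 11.7 to 19.5 RPKM in the controls and at 5.09 to 7.85 and 4.85 to 5.66 RPKM in the knockouts. Ddit4 fell by 1.18 and Fkbp5 by 1.37 on the log2 scale (limma, adjusted p = 0.0476 and 0.0391). Serpina3g, a serine protease inhibitor of lymphoid cells, was at 80.6 to 102 RPKM in the controls and at 27.1 to 35.1 RPKM in the knockouts (limma, adjusted p = 0.0266), and its value is uncertain because it belongs to a family of near-identical copies.

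In the lists of the cell cycle, oxidative phosphorylation, ribosomal proteins, glycolysis and hypoxia, and the type I interferon response, no gene passed in limma. Of the 32 cell cycle genes 2 were lower at an unadjusted p under 0.05 and none passed by DESeq2, with a median of -0.19, and Mki67, a marker of dividing cells, was at 33.2 to 48.3 RPKM in the controls and at 16.1 to 32.3 RPKM in the knockouts. The 34 nuclear genes of oxidative phosphorylation had a median of -0.20, with 1 lower at an unadjusted p under 0.05, and the 80 ribosomal protein genes a median of 0.11, with none. By DESeq2 none of either list passed. Glycolysis and hypoxia genes had a median of -0.50, with 18 of 20 negative, 5 lower and 1 higher at an unadjusted p under 0.05, and 1 in each direction by DESeq2. Type I interferon response genes had a median of 0.66, with 24 of 29 positive, 8 higher and 1 lower at an unadjusted p under 0.05, and 2 higher and 1 lower by DESeq2. Bst2, an interferon-induced surface protein that plasmacytoid dendritic cells carry, was at 5.37 to 9.85 RPKM in the controls and at 35.6, 24.1, 16.1 and 8.96 RPKM in the knockouts. The list medians by library were 1.04, 0.86, 0.49 and 0.20 in replicates 1 to 4, so that the difference was larger in the libraries with high macrophage sums, and without those the group median was 0.30.

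CD8 cells of Vav1CreTet2KO mice share the 3 control libraries with this comparison, so their values are set beside these without a test. Tox was at 2.60, 10.2 and 6.86 RPKM in Vav1CreTet2KO replicates 1 to 3, Prf1 at 4.43, 8.56 and 11.9 RPKM and Bag3 at 3.26, 7.39 and 2.78 RPKM. Klf3 was at 13.6, 6.79 and 16.2 RPKM and Hmgn1 at 22.4, 12.9 and 14.9 RPKM. For these 5 genes every Vav1CreTet2KO library lay on the same side of the controls as the Cd4CreTet2KO libraries. The 5 were picked from the 58 genes that passed, all of which had a Vav1CreTet2KO mean on the same side of the control mean. Those 58 were called against the same 3 controls, so a shared side follows in part from that choice. The share over all genes is not given here. Pdcd1 was more spread there, at 27.5, 61.6 and 13.3 RPKM, and Ifng at 161, 107 and 57.0 RPKM overlapped with the controls.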

How the data were processed

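Per the labels, sorted CD8 cells gave RNA libraries by the SMARTer Stranded Total RNA Pico kit, read in pairs (HiSeq X). The authors deposited RPKM values for the CD8 libraries in 1 table of 25639 genes, per the file headers, and the deposited counts of the CD4 table were used only to imply gene lengths. The submitters' processing notes name GRCm38 and mm10. Not given in the sources used here were the aligner, the counter and the build of the table's coordinates, and no coordinates of that table are printed. Of the per-sample columns, 28 were read and 18 were not used.

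RPKM was tested with limma 3.58.1 in R 4.3.3 (lmFit, eBayes with a trend) after log2(RPKM + 1), in 1 fit of the 10 CD8 libraries with Benjamini-Hochberg adjustment at 0.05. A gene was tested if 3 or more libraries reached 1 RPKM. Fold changes are on that scale, which understates the change of low genes. RPKM times the implied length gave whole reads (100% of 134905 values above 0 within 0.01 of a whole number, with a length for 10212 of the 10224 tested genes). These recovered reads were tested with edgeR 4.0.16 and DESeq2 1.42.0 as alternatives. From 13.1% to 25.3% of low counts were odd in 9 CD8 libraries and 50.6% in Vav1CreTet2KO replicate 1, which may be counted in another unit. The replicates are labelled as biological replicates, so p-values measure the spread between these samples. Molecular identifiers were not used in these values, and depth limits cover counting error only.

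The members, the 40 gene lists and the settings were chosen with earlier results of these data known. Genes were named by a rule: Tet2, up to 4 called genes of each T cell and programme list, the 3 of smallest p of 7 lists, the called genes of largest change up to 30 genes, and up to 10 in each direction from the fit of 7 libraries. Other genes named were chosen after their values were seen, and some genes are not reported here. Promoters came from a RefSeq table of GRCm38.p6. The model was tested on simulated data. Other settings were a pseudocount of 0.1, no filter, size factors, only the compared libraries, a replicate block, and libraries left out.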

Additional observations from a re-analysis of the deposited data

Results flagged for a closer look

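In 153 genes and 41 sums over gene lists, the 4 Cd4CreTet2KO libraries were searched for a highest or lowest library that stood apart, with a gap to the nearest library, as a share of the group's range, above Dixon's critical value for 4 samples. Chance gives about 1 in 20 such groups, or 9.7 of these 194, and 6 were found, fewer than chance would give. Aff3, which rose in the comparison, was at 4.80 RPKM in replicate 4 and at 8.16 to 8.34 RPKM in the others, a gap of 0.948 of the range. Ablim3, which fell, was at 1.63 RPKM in replicate 4 and at 0.282 to 0.411 RPKM in the others (0.905). Tet3 was at 10.1 RPKM in replicate 2 and at 11.6 to 11.7 RPKM in the others (0.907). Ikzf1, a zinc finger factor of lymphocytes, was at 21.7 RPKM in replicate 1 and at 24.8 to 25.2 RPKM in the others (0.88). Tyrobp, a signalling adaptor of myeloid and NK cells, was at 84.1 RPKM in replicate 1 and at 10.6 to 21.9 RPKM in the others (0.847). The summed RPKM of 8 genes of tumour epithelium was 28.8 in replicate 1 and 8.44 to 11.5 in the others (0.849).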

How the results depend on the processing

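The number of genes that passed was 58 and moved with the setting. It was 13 with a pseudocount of 0.1, 8 without the filter on low values and 286 with only the 7 compared libraries. Without Cd4CreTet2KO replicates 1 and 2 it was 0 with all other CD8 libraries in the fit and 88 with only the compared groups. By DESeq2 on recovered reads it was 594. In settings chosen after seeing the data it was 265 with size factors and only the 7 libraries, and 153 without Vav1CreTet2KO replicate 1. Leaving out 1 of the 7 libraries gave 0 to 39 genes. With a replicate block it was 0 (1154 at an unadjusted p under 0.05), but same-numbered libraries did not deviate together (r of 0.054, 0.003 and -0.07 across genes) and 1 of 3 controls correlated best with its own number, so the numbers do not pair the libraries. Of the 24 named genes that passed, 24 also did so with only the 7 libraries, 23 with size factors, 16 by edgeR, 5 with the pseudocount of 0.1 and 1 without the filter, and none reversed. Over 18 settings, the medians of the exhaustion, inhibitory receptor, cytotoxic, heat shock, and naive and memory lists kept their sign, and those of the NK receptor, AP-1, integrin, TET and DNA methylation, oxidative phosphorylation, ribosomal, interferon gamma GTPase, macrophage, NK cell and tumour epithelium lists changed sign in at least 1. Depth limits the low genes: 17 genes that fell had knockout means under 1 RPKM. The controls, in which some genes that rose were listed at 0, were the shallower libraries.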

Other observations

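Marker genes not used in the comparisons gave further values. Erythrocyte and platelet genes summed to 0.122 to 5.67 RPKM and hepatocyte genes to 0.442 to 3.19 RPKM in the 7 libraries, with none of the former passing the filter on low values. Endothelial genes summed to 15.1 and 5.59 RPKM in Cd4CreTet2KO replicates 1 and 2, to 1.71 and 2.28 RPKM in replicates 3 and 4 and to 0.875 to 2.24 RPKM in the controls. Foxp3, the factor of regulatory T cells, was at 2.23 to 4.04 RPKM in the controls and at 0.836 to 2.56 RPKM in the knockouts, and Zbtb7b, a factor of the CD4 lineage, at 2.82 to 4.93 RPKM and 0.542 to 3.52 RPKM. Both overlapped between the groups and neither passed. Ly6d, a surface protein of B cell and plasmacytoid dendritic cell precursors, was listed at 0 in every control and was at 22.2, 9.63, 4.37 and 1.19 RPKM in the knockouts (limma, adjusted p = 0.0718). Nrgn, a calmodulin-binding protein, was at 126, 56.8 and 59.6 RPKM in the controls and at 15.4, 2.72, 8.14 and 16.4 RPKM in the knockouts (limma, adjusted p = 0.0912). Igfbp7, a secreted binding protein of insulin-like growth factors, was at 53.4, 20.8 and 15.9 RPKM in the controls and at 4.22, 1.15, 2.74 and 5.60 RPKM in the knockouts, and fell (limma, adjusted p = 0.0487).

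Idh2, a mitochondrial enzyme that makes the cofactor 2-oxoglutarate used by TET enzymes, was at 3.18, 4.20 and 3.56 RPKM in the controls and at 13.1, 5.67, 10.7 and 7.71 RPKM in the knockouts (limma, adjusted p = 0.103). The knockout libraries were all above the controls, and the gene did not pass. Syna, an envelope-derived fusion gene, was at 2.66 to 4.28 RPKM in the controls and at 0 to 0.157 RPKM in the knockouts, and fell (limma, adjusted p = 0.0470). Ttn, a giant muscle protein gene like Neb, was at 1.82 to 2.90 RPKM in the controls and at 0.0742 to 0.402 RPKM in the knockouts, and fell (limma, adjusted p = 0.0345).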
